A study of Homo sapiens with 4 samples.

Results

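The genes examined here are the 36 aminoacyl-tRNA synthetase genes listed by name, 20 cytosolic and 16 mitochondrial, out of 58735 genes in the deposited count table. All 36 names matched exactly 1 row, and all 36 passed the filter on low counts, a mean of at least 1 CPM (counts scaled to a common library size) over the 4 libraries, which kept 14585 genes. The list was drawn up with earlier results of these data known. RNA was sequenced from MDA-MB-231, an established line of human breast cancer cells that lack estrogen and progesterone receptors, transduced with TetOn-H2BeGFP, a doxycycline-inducible histone H2B fused to green fluorescent protein. All 4 groups, Bulk included, had been given doxycycline (5 μg/ml over 3 days) and both the Claret and the Violet dye, and were then chased for 12 days. The Claret, eGFP and Violet groups are the 1% of cells that kept most of the named label, and are called slow-cycling because label is diluted at division. Bulk passed the sorter without a fluorescence gate, so that it may include slow-cycling cells as well. Each group is 1 library, so no difference below has a replicate check, and intervals cover counting error only.

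Libraries are named by their titles, and the column headers of the deposited counts and FPKM carry the same names. In every sample the treatment field names another sort: the library titled Bulk is given there as Claret, that titled Claret as eGFP, that titled H2B-eGFP as Violet, and that titled Violet as un-gated. The values below therefore rest on the titles, and the values under the treatment field stand in the closing section. The proliferation markers MKI67 (6778 reads in the library titled Bulk, 689 to 995 elsewhere) and TOP2A (14220 and 2487 to 3399) moved with every difference from Bulk given below. Their part in it was not tested. Summed counts ranged from 15508179 to 16976909 per library. All 8 markers of MDA-MB-231 on the list used (VIM, CD44, EGFR, KRT18, KRT8, KRT19, AXL and CAV1) were read in every library. Of 6 luminal breast markers, ESR1 had 3 to 7 reads, PGR 0 and CDH1 0 to 3. The luminal list was not silent as a whole: its 6 genes summed to 6100 to 7767 reads per library. The highest of them stood at 91.0 to 110 FPKM, and 3 of the 6 passed the filter. The summed level of 5 leukocyte markers was 0.381 CPM in Bulk and 0.530 to 0.826 in the others, with 3 of the 5 at 0 reads in each library. That of 4 endothelial markers was 4.38 CPM in Bulk and 5.98 to 8.07 in the others. Among them VWF, with 4 reads in Bulk and 19 to 24 elsewhere, was called higher in each slow-cycling library by the rule given below. It was 1 of the 2 that passed the filter. Of all genes 11.2% (Claret), 11.9% (eGFP) and 11.5% (Violet) were called higher. The other of these 2 was not called, with log2 ratios of 0.39, -0.088 and 0.59 in the same order. CDH5 had 0 to 2 reads. The part of these markers in the results was not tested. Of 5 fibroblast markers COL1A1 had 284 to 363 reads and the other 4 had 0 to 5.

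Aminoacyl-tRNA synthetases join each amino acid to its transfer RNA, the step that fixes the meaning of the genetic code. Human cells keep separate enzymes for the cytosol and for mitochondria, where a small set of membrane proteins is made, but both sets are encoded in the nucleus. GARS and KARS each encode the enzyme of both compartments, EPRS joins the glutamyl and prolyl enzymes in 1 chain, and FARSA and FARSB encode the subunits of the phenylalanyl enzyme. When amino acids run short, uncharged transfer RNA activates the kinase GCN2, and the transcription factor ATF4 is then translated. ATF4 is known to raise genes for amino-acid uptake, amino-acid synthesis and several cytosolic synthetases.

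The cytosolic set split into 2 blocks that were the same in all 3 slow-cycling libraries. AARS, CARS, EPRS, GARS, IARS, LARS, MARS, NARS, SARS, TARS, WARS and YARS lay above Bulk in each, with log2 ratios of 0.46 to 2.15. DARS, FARSA, FARSB, HARS, KARS, QARS, RARS and VARS lay below Bulk in each, with log2 ratios of -0.99 to -0.09. No cytosolic gene lay between -0.09 and 0.46 in any library. A gene was called when its reads differed between 2 libraries by an exact binomial test (Benjamini-Hochberg adjusted p under 0.05 over the 14585 genes) and the change reached 2-fold, a log2 ratio of 1 in size. The test compares 2 libraries, not conditions. By this rule 7 of the 20 rose in each library, where 11.2% (Claret), 11.9% (eGFP) and 11.5% (Violet) of all genes were called higher. Of the 20, 0 fell, beside 6.71%, 7.61% and 6.91% of all genes called lower, so that 0 says little. The 7 genes were the same in the 3 libraries (AARS, CARS, GARS, MARS, SARS, WARS and YARS), where 8.41% of all genes were called higher in all 3. In bulk RNA, fewer cells with a transcript and less of it per cell cannot be told apart, and the 3 comparisons share the same Bulk library.

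**Figure D1:**
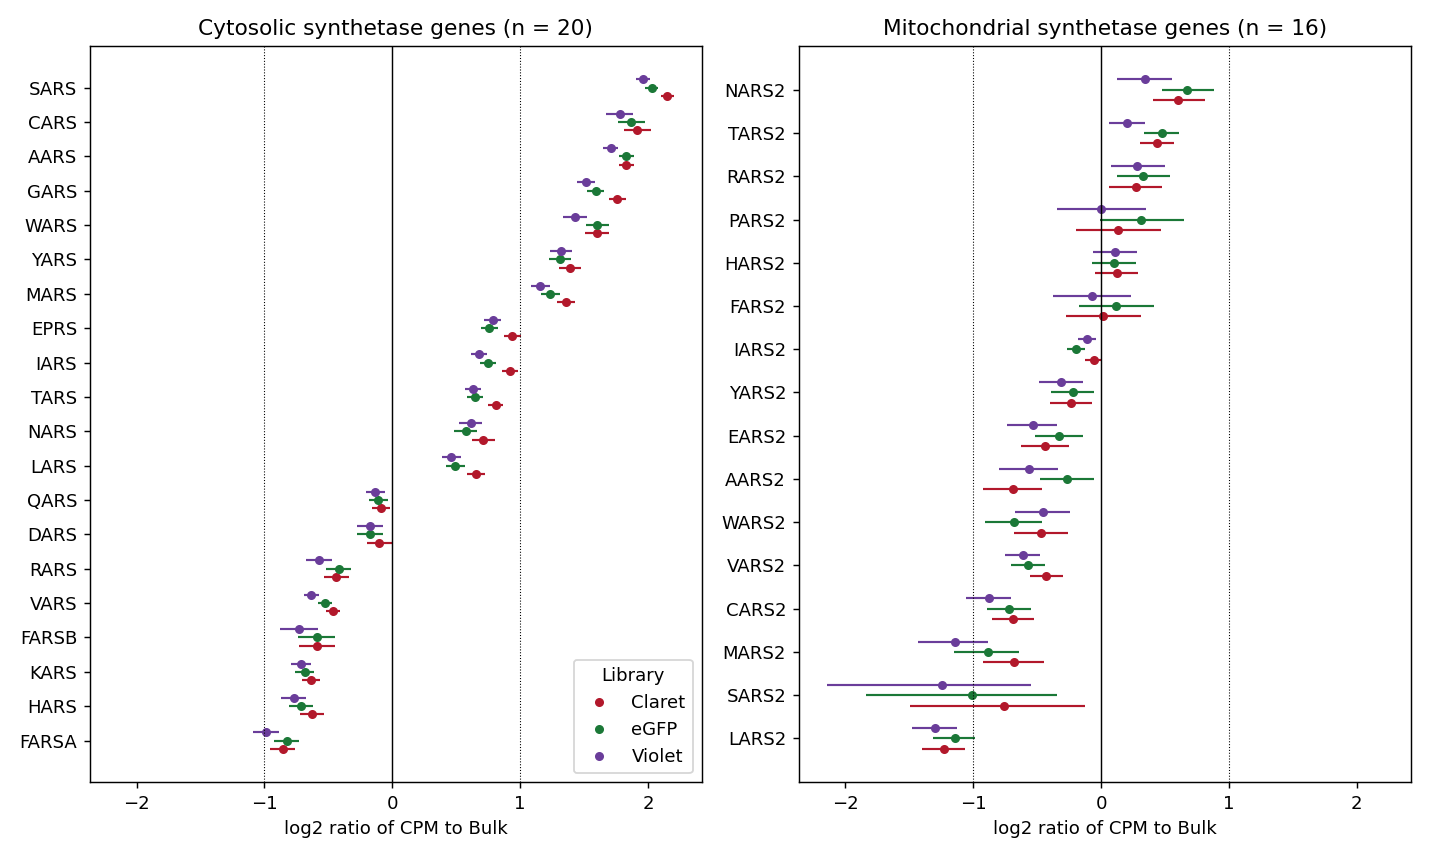
Log2 ratio of CPM to Bulk (x axis) for the 20 cytosolic and 16 mitochondrial synthetase genes, with 1 point per slow-cycling library and a line for the 95% exact interval of the read ratio. Dotted lines mark 2-fold; 7 cytosolic genes lie beyond it on the right in all 3 libraries and LARS2 lies beyond it on the left in all 3.

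SARS, the seryl-tRNA synthetase (ENSG00000031698, chromosome 1, 109213918 to 109238169, GRCh38), stood first. Its reads numbered 3856 (Bulk), 18475 (Claret), 15870 (eGFP) and 14997 (Violet), so that each slow-cycling library was well above Bulk. Its log2 ratios were 2.15 (95% interval 2.10 to 2.20), 2.03 (1.98 to 2.08) and 1.96 (1.91 to 2.01) in that order, or 4.44-fold, 4.08-fold and 3.89-fold. CARS, the cysteinyl enzyme (ENSG00000110619, chromosome 11, 3000922 to 3057613), went from 926 Bulk reads to 3768 (Claret), 3411 (eGFP) and 3176 (Violet). The log2 ratios were 1.91 (1.81 to 2.02), 1.87 (1.76 to 1.97) and 1.78 (1.67 to 1.89), and compared directly Claret lay above Violet by 0.14 (0.069 to 0.21).

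AARS, the alanyl enzyme (ENSG00000090861, chromosome 16, 70252295 to 70289543), went from 3054 Bulk reads to 11714 (Claret), 10966 (eGFP) and 9970 (Violet), with log2 ratios of 1.83 (1.77 to 1.89), 1.83 (1.77 to 1.89) and 1.71 (1.65 to 1.77). GARS, the glycyl enzyme of both compartments (ENSG00000106105, chromosome 7, 30594681 to 30634033), went from 2375 Bulk reads to 8667, 7223 and 6785 in the same order. Its log2 ratios were 1.76 (1.69 to 1.83), 1.59 (1.52 to 1.66) and 1.51 (1.45 to 1.58). GARS rose while KARS, also shared by both compartments, did not: KARS (chromosome 16, 75627474 to 75648643) went from 3767 Bulk reads to 2614, 2363 and 2293, log2 ratios of -0.63, -0.68 and -0.71.

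The tryptophanyl enzyme WARS (ENSG00000140105, chromosome 14, 100333788 to 100376805), also known as an interferon-induced gene, had 1227 Bulk reads beside 4007, 3764 and 3303 in the slow-cycling libraries, log2 ratios of 1.60, 1.60 and 1.43. YARS, the tyrosyl enzyme (ENSG00000134684, chromosome 1, 32775237 to 32818153), had 1531 Bulk reads beside 4321, 3831 and 3827, log2 ratios of 1.39, 1.31 and 1.32. MARS, the methionyl enzyme (ENSG00000166986, chromosome 12, 57475445 to 57517569), had 2033 Bulk reads beside 5618, 4834 and 4530, which gave log2 ratios of 1.36 (1.29 to 1.43), 1.24 (1.16 to 1.31) and 1.16 (1.08 to 1.23). In all 3 genes Bulk was the lowest library and no interval reached 0. Exons of other genes, DDIT3 among them, cover 13.3% of the exon bases of MARS, mostly on the opposite strand, and 10.6% of those of WARS. Use of strand in counting is not given in the sources used here, so reads in those stretches cannot be assigned with certainty.

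Another 5 cytosolic genes lay above Bulk in each library without reaching 2-fold. EPRS had log2 ratios of 0.94, 0.76 and 0.79 in Claret, eGFP and Violet, and IARS, the isoleucyl enzyme, had 0.92, 0.75 and 0.68. TARS, the threonyl enzyme, had 0.81, 0.65 and 0.63. NARS, the asparaginyl enzyme, had 0.71, 0.57 and 0.61, and LARS, the leucyl enzyme and a leucine sensor for mTORC1, had 0.66, 0.49 and 0.46. All 15 of these intervals lay above 0. Counting the called genes too, 12 cytosolic intervals lay above 0 in each library, as did 34.1%, 34.6% and 35.2% of all genes. With the fold lowered to 1.5, 12 (Claret), 10 (eGFP) and 11 (Violet) cytosolic genes passed upward, beside 19.6%, 20.3% and 20.5% of all genes.

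The 8 cytosolic genes below Bulk were lower by less than 2-fold, and none was called. Of all genes, 6.71% (Claret), 7.61% (eGFP) and 6.91% (Violet) were called lower. FARSA and FARSB, the subunits of the phenylalanyl enzyme, lay low together. FARSA (ENSG00000179115, chromosome 19, 12922479 to 12934037) had 2283 reads (Bulk), 1357 (Claret), 1299 (eGFP) and 1150 (Violet), which gave log2 ratios of -0.86 (-0.96 to -0.76), -0.83 (-0.93 to -0.73) and -0.99 (-1.09 to -0.89). FARSB had 994 Bulk reads beside 712, 665 and 598, log2 ratios of -0.59, -0.59 and -0.73.

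HARS, the histidyl enzyme, had log2 ratios of -0.63, -0.71 and -0.77 in Claret, eGFP and Violet, and VARS, the valyl enzyme, had -0.46, -0.53 and -0.63. RARS, the arginyl enzyme, had -0.44, -0.42 and -0.58. DARS, the aspartyl enzyme, had -0.10, -0.17 and -0.18, and QARS, the glutaminyl enzyme, -0.09, -0.11 and -0.13. The intervals of all 8 lay below 0 in each library, as did 36.2%, 36.7% and 35.8% of all genes. At 1.5-fold 4, 4 and 5 of them were called lower in Claret, eGFP and Violet, against 16.6%, 17.8% and 16.6% of all genes.

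The blocks cut across the known groupings of these enzymes. Of the 8 synthetase genes whose products sit in the multisynthetase complex, EPRS, IARS, LARS and MARS lay above Bulk, and DARS, KARS, QARS and RARS below, with 1 called. Among the 12 genes of enzymes outside the complex, 8 lay above and 4 below, with 6 called higher. Both counts of calls held in each library, where 11.2% (Claret), 11.9% (eGFP) and 11.5% (Violet) of all genes were called higher. In all 3 libraries 8.41% of all genes were called higher. By the 2 structural classes of synthetases, 6 of 9 class I genes and 5 of 10 class II genes lay above Bulk in all 3 libraries, and EPRS, which holds both classes, did as well. The scaffold genes of the complex did not move up: AIMP1 had 675 Bulk reads beside 587 to 708, AIMP2 452 and 236 to 306, and EEF1E1 194 and 105 to 147. None of the 3 was called, where 17.9%, 19.5% and 18.4% of all genes were called in either direction in Claret, eGFP and Violet. The median log2 ratios of the 3 were -0.67, -0.41 and -0.70 in the same order.

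**Figure D2:**
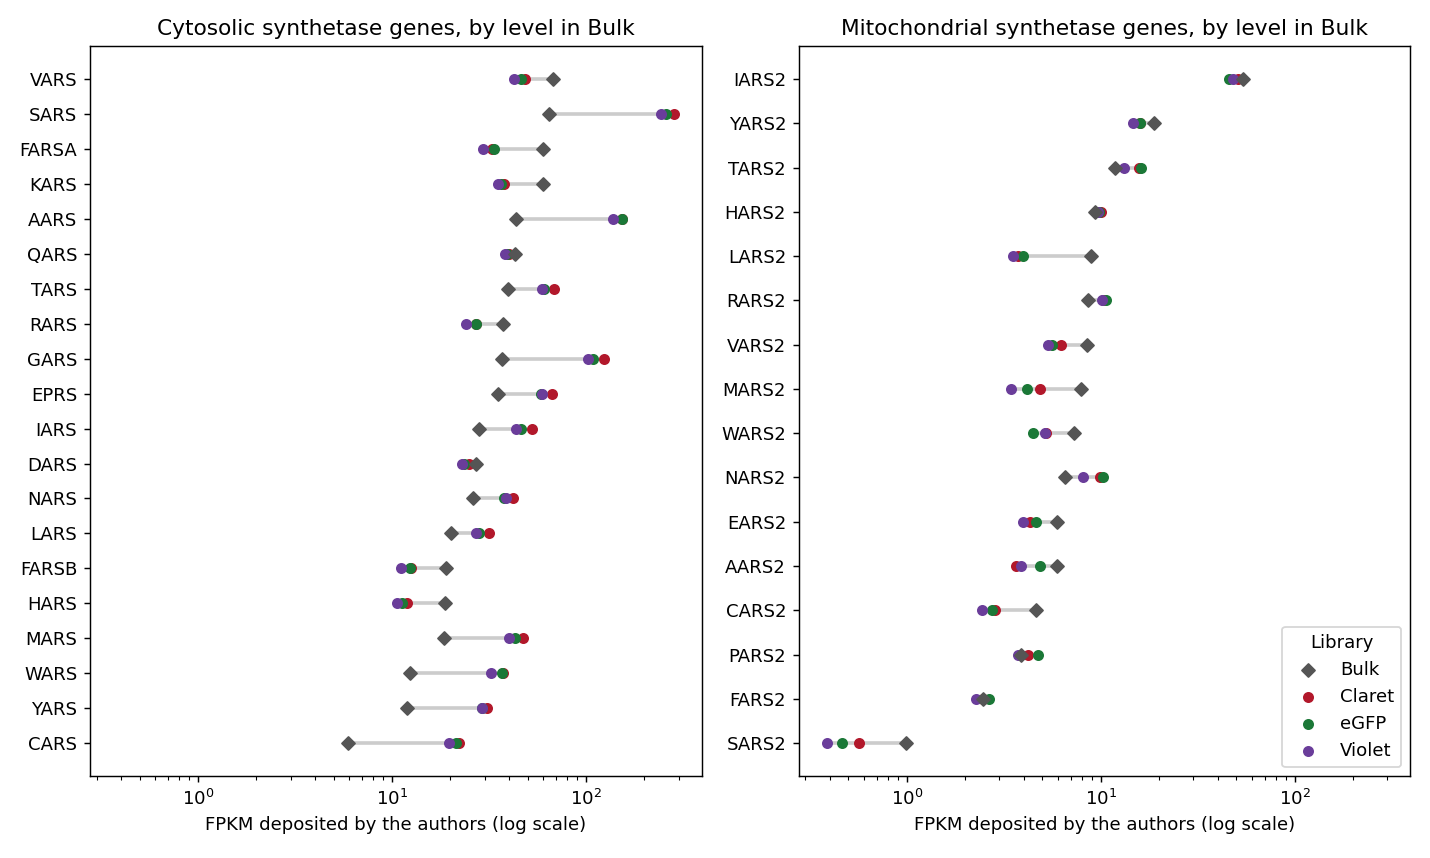
FPKM deposited by the authors (x axis, log scale) for each synthetase gene in the 4 libraries, ordered by the level in Bulk. SARS moves from 64.7 in Bulk to between 244 and 284, while VARS, first in Bulk at 67.8, lies between 42.3 and 48.6 in the slow-cycling libraries.

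Levels were compared between genes on the authors' FPKM, which is scaled to gene length. In Bulk the cytosolic genes ran from 5.94 FPKM for CARS to 67.8 for VARS, with SARS at 64.7, FARSA at 60.3 and KARS at 59.6. In Claret SARS was first at 284 FPKM, then AARS at 153 and GARS at 123, and FARSA had gone to 32.8. The order in eGFP (259, 153 and 109 FPKM) and Violet (244, 138 and 102 FPKM) was the same for these 3 genes. The lowest cytosolic gene in each slow-cycling library was HARS, at 12.0, 11.2 and 10.6 FPKM, against 18.7 in Bulk. CARS had overtaken it, at 22.1, 21.3 and 19.7 FPKM. The 20 genes summed to 3269 CPM (Bulk), 5949 CPM (Claret), 5556 CPM (eGFP) and 5308 CPM (Violet), that is 1.82, 1.70 and 1.62 times Bulk.

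Short sequences near the starts of the synthetase genes were examined because ATF4 is known to act through such stretches in several cytosolic synthetase genes. The core of the C/EBP-ATF response element, written TGATGNAA and searched on both strands (reverse TTNCATCA), was sought from 250 bases before to 50 bases after each RefSeq start (GRCh38.p14). Windows were found for 30 of the 36 genes, 16 cytosolic and 14 mitochondrial, and not for DARS, LARS, VARS, YARS, AARS2 and VARS2. It was present in 7 of the 16 cytosolic genes (43.8%) and in 1 of the 14 mitochondrial genes (7.14%), beside 4.46% of all 27305 genes with such windows and 2.83% of the 10747 among them that passed the filter here. Per window, 33.3% of cytosolic, 5.56% of mitochondrial and 3.62% of all 35116 windows held it. All 7 cytosolic genes with a match (AARS, CARS, GARS, IARS, MARS, NARS and TARS) lay above Bulk in the 3 slow-cycling libraries. These were 7 of the 10 such genes with a window, and 0 of the 6 genes below Bulk with a window had a match. The search was not equal in length. The 10 genes above Bulk had 15 windows, of which 7 (46.7%) held a match, and the 6 below had 6 windows. Whether matches are more common among all genes above Bulk was not tested. SARS and WARS, called higher in each library, had none in this window, which says nothing of other stretches. A match is a description of letters and no evidence of binding. The stretches around the 7 cytosolic matches and the 1 mitochondrial match are printed to let the letters be compared, each 5′ to 3′ along the gene with the match in capitals.
AARS (chr16:70289656-70289723, minus strand): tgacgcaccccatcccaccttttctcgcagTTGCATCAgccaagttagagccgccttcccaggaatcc
CARS (chr11:3057407-3057436, minus strand): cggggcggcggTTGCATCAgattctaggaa
GARS (chr7:30594834-30594863, plus strand): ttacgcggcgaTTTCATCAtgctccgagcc
IARS (chr9:92293692-92293721, minus strand): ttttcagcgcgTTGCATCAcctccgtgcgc
MARS (chr12:57488053-57488082, plus strand): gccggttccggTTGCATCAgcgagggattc
NARS (chr18:57621804-57621833, minus strand): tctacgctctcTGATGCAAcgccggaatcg
TARS (chr5:33440956-33440985, plus strand): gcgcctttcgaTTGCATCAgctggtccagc
YARS2 (chr12:32756057-32756124, minus strand): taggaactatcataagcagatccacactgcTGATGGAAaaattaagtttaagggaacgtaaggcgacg

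In 5 of the cytosolic genes (CARS, IARS, MARS, TARS and AARS) the letters were TTGCATCA, and in NARS the same 8 letters stood on the other strand as TGATGCAA. The match in GARS read TTTCATCA. Seen from the start, the first base of the match lay at -13 in IARS, -4 in MARS, -2 in CARS, 2 in TARS and 14 in NARS, with the start as base 0. In GARS it lay at -33 from the later of its starts, and in AARS at -187. The match of YARS2, the mitochondrial tyrosyl gene, lay at -197 and had the letters TGATGGAA.

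**Figure D3:**
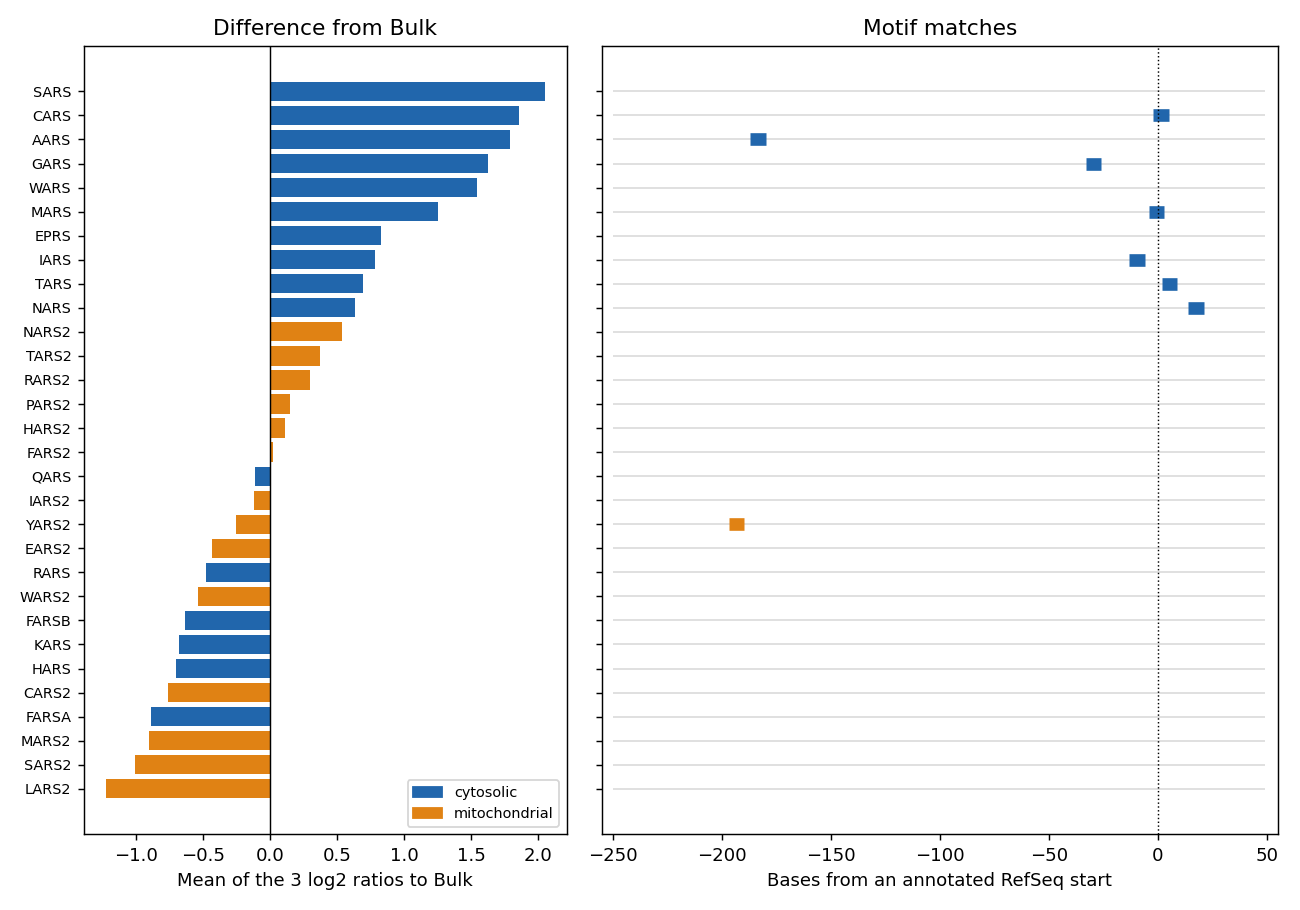
Left, mean of the 3 log2 ratios to Bulk for the 30 synthetase genes with a RefSeq window; right, positions of the 8-base matches in bases from a start (dotted line at 0). The 7 cytosolic matches fall in genes above Bulk, 6 of them within 33 bases of the start.

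In the mitochondrial set 0 of the 16 genes were called higher in any library, where 11.2% (Claret), 11.9% (eGFP) and 11.5% (Violet) of all genes were. Called lower were 1 (Claret), 2 (eGFP) and 3 (Violet), beside 6.71%, 7.61% and 6.91% of all genes. The set's median log2 ratios were -0.33, -0.24 and -0.38 in the same order. Over the 11 genes with under 5% of their exon bases shared with other genes, a subset chosen after the data were seen, the medians were -0.059, -0.20 and -0.11. The intervals of 9 genes (AARS2, CARS2, EARS2, LARS2, MARS2, SARS2, VARS2, WARS2 and YARS2) lay below 0 in all 3 libraries, and those of NARS2, RARS2 and TARS2 lay above it in all 3. FARS2, HARS2, IARS2 and PARS2 did neither. These genes were read less deeply than the cytosolic ones, with a median over genes of 27.3 CPM (mean of 4 libraries) against 199 CPM. The median 95% interval was therefore ± 0.20 in each comparison with Bulk, beside ± 0.07 to ± 0.08 for the cytosolic set.

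LARS2, the mitochondrial leucyl enzyme (ENSG00000011376, chromosome 3, 45388506 to 45549421), was the member called lower in all 3 libraries, as were 4.93% of all genes. Its reads numbered 949 (Bulk), 435 (Claret), 432 (eGFP) and 385 (Violet), so that Bulk was more than 2-fold above each. Its log2 ratios were -1.23 (-1.40 to -1.07), -1.14 (-1.32 to -0.98) and -1.30 (-1.48 to -1.13). MARS2, the methionyl enzyme (chromosome 2, 197705369 to 197708387), fell in Violet with a log2 ratio of -1.15 (-1.43 to -0.89), and had -0.68 in Claret and -0.89 in eGFP. Its reads were 370, 248, 201 and 166 in Bulk, Claret, eGFP and Violet. SARS2, the seryl enzyme, had 50, 31, 24 and 20 reads in that order and was called lower in eGFP (-1.01) and Violet (-1.24). Its counts are uncertain, since 57.0% of its exon bases overlap other genes, MRPS12 among them, and its interval in Violet ran from -2.15 to -0.55.

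CARS2, the mitochondrial cysteinyl enzyme, had log2 ratios of -0.69, -0.72 and -0.88 in Claret, eGFP and Violet. WARS2, the tryptophanyl enzyme, had -0.47, -0.68 and -0.46, and VARS2, the valyl enzyme, -0.43, -0.57 and -0.61. AARS2, the alanyl enzyme, had -0.69 in Claret and -0.56 in Violet but -0.26 in eGFP. EARS2, which charges glutamate and also starts the indirect route to mitochondrial glutaminyl-tRNA, had -0.43, -0.33 and -0.53. The genes of the amidotransferase that completes that route were not called either: QRSL1 had -0.50, -0.49 and -0.95, GATB -0.15, -0.25 and -0.15, and GATC -0.01, 0.01 and -0.13. Of all genes 17.9% (Claret), 19.5% (eGFP) and 18.4% (Violet) were called in either direction, so the lack of a call in so few genes says little.

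NARS2, the mitochondrial asparaginyl enzyme (chromosome 11, 78435961 to 78574874), was the mitochondrial gene farthest above Bulk. Its 322 Bulk reads stood beside 528 (Claret), 520 (eGFP) and 408 (Violet), which gave log2 ratios of 0.60 (0.40 to 0.81), 0.68 (0.48 to 0.88) and 0.34 (0.13 to 0.56), with none called. TARS2 had 0.44, 0.47 and 0.20, and RARS2 0.27, 0.33 and 0.28. For FARS2, HARS2 and PARS2 no difference was detectable at this depth, since all 9 intervals included 0. IARS2, the mitochondrial gene with the highest level (46.0 to 53.8 FPKM), had -0.06 in Claret, -0.20 in eGFP and -0.11 in Violet.

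On the log2 scale the cytosolic median exceeded the mitochondrial by 1.09, 0.85 and 1.00 (Claret, eGFP, Violet). The cytosolic medians were 0.76, 0.61 and 0.62, while the median over all 14585 genes was -0.01 in Claret and eGFP and 0.01 in Violet. The cytosolic genes were also more spread, with log2 ratios whose standard deviation across genes was 0.98 to 1.01, against 0.50 to 0.55 for the mitochondrial genes and 0.86 to 0.90 for all genes. Above the highest mitochondrial gene lay 12, 9 and 12 of the 20 cytosolic genes (Claret, eGFP, Violet). The mitochondrial genes summed to 697 CPM (Bulk), 611 CPM (Claret), 596 CPM (eGFP) and 570 CPM (Violet). Genes are not replicates, so these contrasts between sets are descriptions.

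**Figure D4:**
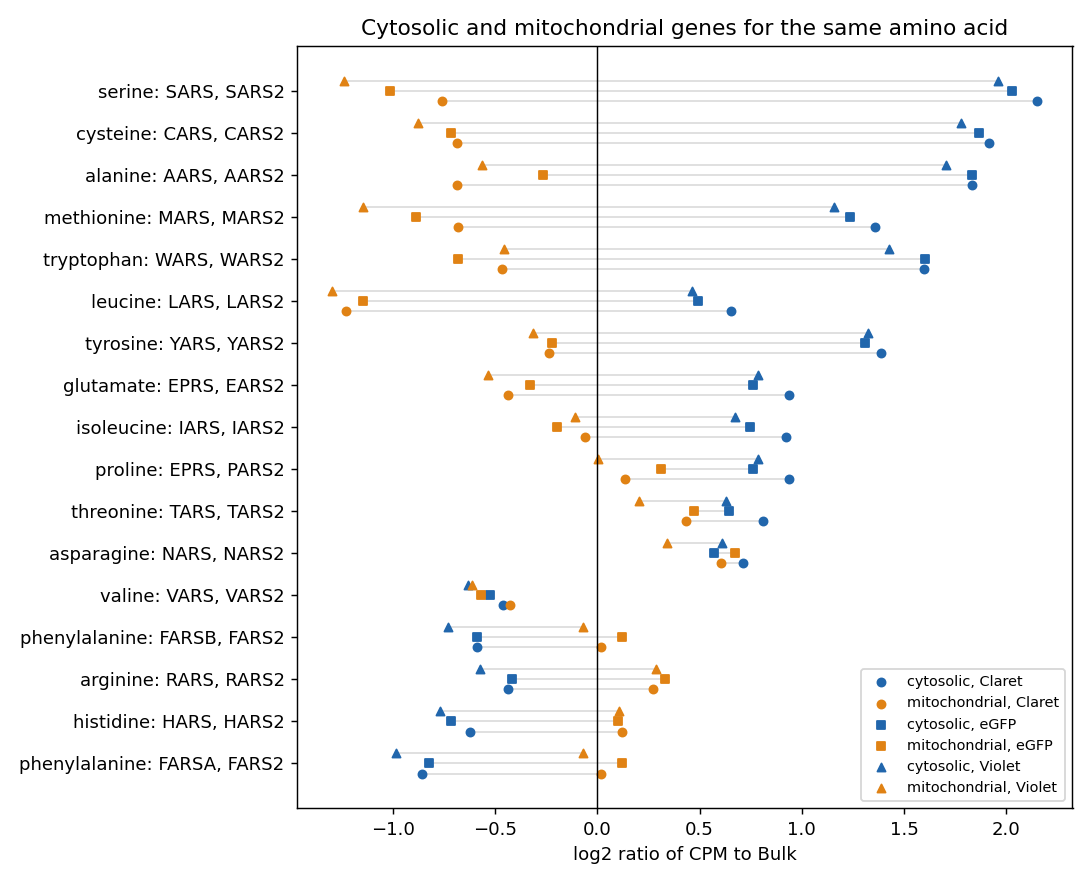
Log2 ratio of CPM to Bulk (x axis) for the 17 pairs of a cytosolic (blue) and a mitochondrial (orange) gene charging the same amino acid, with a marker shape per library. Serine is the widest pair, with cytosolic minus mitochondrial differences of 2.91 to 3.20, and the arginine, histidine and phenylalanine pairs run the other way.

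Pairing the genes by amino acid gave 17 pairs, in which EPRS and FARS2 each appear more than once. The cytosolic gene had the higher log2 ratio in 12 pairs in each library, with median differences of 0.98, 0.94 and 0.79. These were not the same 12 throughout, since the asparagine and valine pairs changed sides in eGFP. For asparagine the differences were 0.11, -0.10 and 0.27. For serine the cytosolic log2 ratio exceeded the mitochondrial by 2.91, 3.04 and 3.20, for cysteine by 2.60, 2.58 and 2.66, and for alanine by 2.52, 2.10 and 2.27. Leucine had the cytosolic gene up and the mitochondrial gene down, with differences of 1.89, 1.64 and 1.76. Methionine did likewise, with 2.04, 2.12 and 2.30. In the valine pair both genes lay below Bulk by similar amounts, with differences of -0.04, 0.04 and -0.02. In arginine, histidine and phenylalanine the cytosolic gene had the lower ratio in all 3 libraries.

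HARS and HARS2, a pair in which the cytosolic gene had the lower ratio, are neighbours. They are transcribed in opposite directions from RefSeq starts 85 bases apart on chromosome 5, with HARS2 at 140691426 to 140699318. HARS went from 2287 Bulk reads to between 1340 and 1597, whereas HARS2 went from 540 to between 581 and 633. The log2 ratios of HARS2 were 0.12 (-0.05 to 0.29), 0.10 (-0.07 to 0.27) and 0.11 (-0.06 to 0.28) in Claret, eGFP and Violet. Their exons overlap, over 8.38% of the exon bases of HARS and 15.8% of those of HARS2 with all overlapping genes counted, so some reads cannot be assigned to either gene with certainty.

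In level, the cytosolic gene of a pair was the higher in 15 of 17 pairs in Bulk. The exceptions were isoleucine and tyrosine, where IARS had 28.2 FPKM beside 53.8 for IARS2, and YARS 12.0 beside 18.9 for YARS2. In Claret and eGFP all 17 cytosolic genes were higher, and in Violet 16, IARS being at 43.6 FPKM and IARS2 at 48.2. The median ratio of cytosolic to mitochondrial FPKM over the pairs was 3.96 for Bulk and 7.80, 7.71 and 7.68 for the others.

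Between the slow-cycling libraries 0 of the 36 genes were called in any of the 3 comparisons. Of all genes, 0.713% were called between Claret and eGFP, 0.782% between Claret and Violet and 0.926% between eGFP and Violet. Smaller differences were present. All 20 cytosolic genes were higher in Claret than in Violet, with differences of 0.05 to 0.25 and a median of 0.14. Of their intervals 16 lay above 0, as did 2090 over all 14585 genes. Claret was above eGFP in 16 of the 20, with a median of 0.08. There 10 intervals lay above 0, beside 1849 over all 14585 genes. The median log2 ratio over all genes was 0.00 in each of these comparisons. The cytosolic genes were read more deeply (median 199 CPM, beside 25.7 CPM over all genes), which narrows their intervals. In 17 of the 20 eGFP was above Violet, with a median of 0.069. The mitochondrial set was likewise above Violet in 13 of 16 genes in Claret (median 0.094) and in 13 of 16 in eGFP (median 0.18), while Claret was above eGFP in 7 of 16 (median -0.026). The medians over Violet kept their sign under every scaling tried, with the cytosolic median of Claret over Violet between 0.12 and 0.16. With 1 library per group, such differences cannot be told apart from differences between library preparations.

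The genes around charging were counted in lists. A list of 26 amino-acid response genes under ATF4, which holds no aminoacyl-tRNA synthetase, was counted in the same way. Of these, 21 (Claret), 21 (eGFP) and 20 (Violet) rose, beside 11.2%, 11.9% and 11.5% of all genes called higher. In each library 0 fell, beside 6.71%, 7.61% and 6.91% of all genes called lower. The medians were 1.96, 1.78 and 1.76. This list too was chosen with earlier results of these data known. ATF4 itself went from 3629 Bulk reads to 14198, 12544 and 11767 (log2 ratios 1.86, 1.78 and 1.70). ASNS, the asparagine synthetase that makes the amino acid rather than its charged transfer RNA, had 26 Bulk reads beside 345 to 405 (3.72, 3.85 and 3.63). PSAT1 and PHGDH, enzymes of serine synthesis, had log2 ratios of 2.07, 1.84 and 1.82 and of 2.17, 1.97 and 1.98. The motif was present in 5 of the 19 genes of this list with a RefSeq window (26.3%).

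Of the 6 genes for transfer RNA export and quality control 0 were called. In either direction 17.9% (Claret), 19.5% (eGFP) and 18.4% (Violet) of all genes were called, so 0 in so short a list says little. XPOT, the exportin that carries transfer RNA out of the nucleus, had 2838 Bulk reads beside 5605, 5224 and 5226, with log2 ratios of 0.87, 0.87 and 0.88. TARSL2, a second cytosolic threonyl-tRNA synthetase gene outside the list of 36, had 103 Bulk reads beside 147 to 183. Among cytosolic elongation factors 0 of 4 tested genes were called, beside the same shares of all genes. EEF1A1, which carries charged transfer RNA to the ribosome, had 0.72, 0.69 and 0.59, and EEF2, which moves the ribosome along, 0.80, 0.84 and 0.72. The nucleotide-exchange partners EEF1B2 (-0.02, -0.12 and -0.26) and EEF1D (-0.20, -0.21 and -0.38) were not above Bulk. The fifth gene, EEF1G, was listed at 0 reads in every library.

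On the mitochondrial side, 0 of 5 tested partner genes of charging were called, beside 17.9%, 19.5% and 18.4% of all genes in either direction. Of 9 mitochondrial translation factors 0 were called higher, and 0, 2 and 2 were called lower in Claret, eGFP and Violet, beside 6.71%, 7.61% and 6.91% of all genes. Those called were TSFM (-0.61, -1.06 and -1.10) and GFM1 (-0.94, -1.13 and -1.08), an exchange factor and an elongation factor of the mitochondrial ribosome. TUFM, which delivers charged transfer RNA there, had -0.45, -0.47 and -0.71. Another 4 of the 9 lay above Bulk in each library without being called, from MTRF1, a release factor (0.47, 0.43 and 0.43), and MTIF3, an initiation factor (0.31, 0.41 and 0.24), to GFM2 (0.25, 0.21 and 0.11) and MTIF2 (0.31, 0.031 and 0.11). The medians of the 9 were -0.15, -0.019 and -0.19.

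**Figure D5:**
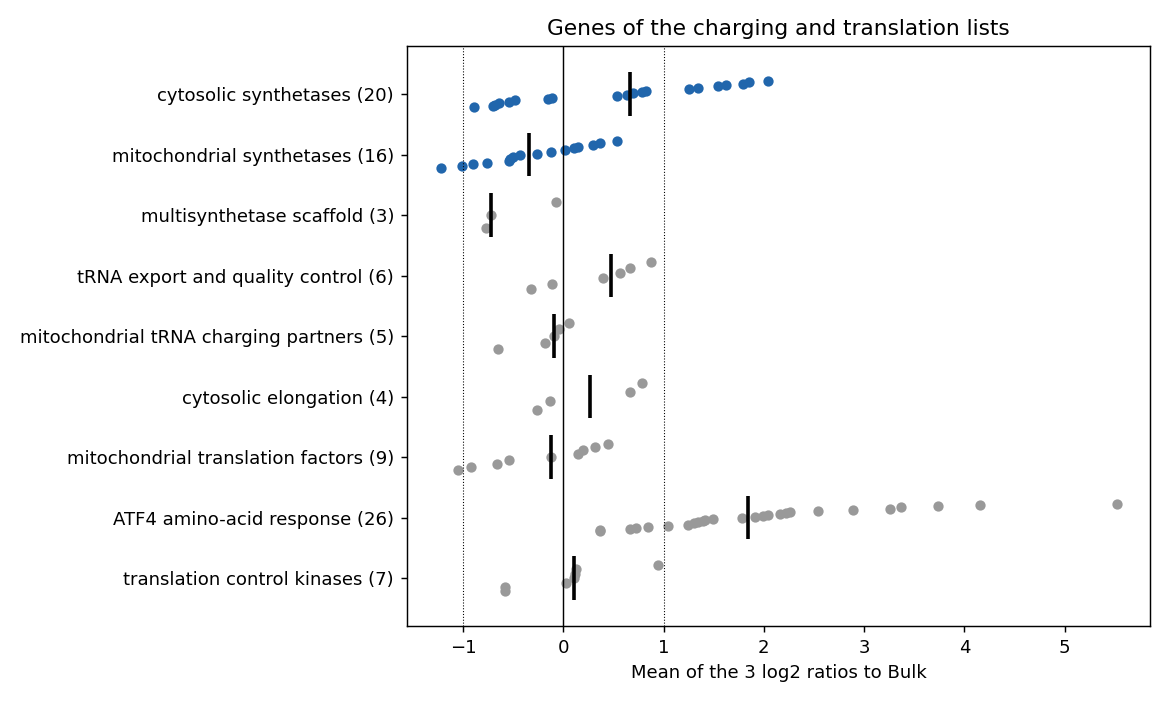
Mean of the 3 log2 ratios to Bulk (x axis) for each tested gene of 9 lists, with the number tested in brackets and a bar at the list's median. The 26 ATF4 amino-acid response genes all lie above 0, the cytosolic synthetases split on either side of a gap, and most mitochondrial synthetases lie below 0.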

How the data were processed

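RNA-seq values came from tables the authors deposited. The deposited count table holds whole-number reads per gene, not normalized. The FPKM table, scaled by the authors to gene length and depth per the file headers, served for levels between genes. HISAT2 2.0.5 and featureCounts 1.5.0-p3 are named in the submitters' processing notes, and strand use is not given in the sources used here. Gene coordinates are as deposited and coincide with GENCODE 29 (GRCh38).

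Library sizes were scaled by TMM (edgeR 4.0.16, R 4.3.3). A prior count of 2 entered the log2 ratios of CPM. With 1 library per group the edgeR quasi-likelihood test could not be fitted, so reads of 2 libraries were compared by a two-sided exact binomial test. It was checked on simulated counts that held counting error only. Variation between libraries was not simulated, so that check does not cover it. Intervals are 95% Clopper-Pearson. Alternatives were DESeq2 1.42.0 size factors, other filters, prior counts, folds, FPKM, a GC correction and groups from the treatment field. All 36 members may be named; of other lists, any gene beside its list's count. The members and lists were chosen with earlier results of these data known. Promoter letters are RefSeq's (GRCh38.p14).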

Additional observations from a re-analysis of the deposited data

How the results depend on the processing

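No cytosolic gene changed direction in any library under DESeq2 size factors, summed counts with no scaling, no filter, a filter at 10 CPM, a prior count of 0.5, log2(FPKM + 1) or a GC correction, and the 7 calls held under each. Changes of sign there were limited to IARS2, FARS2 and PARS2. FARSA in Violet passed 2-fold downward on log2(FPKM + 1) and under the GC correction (1 gene called lower in each). The filter at 10 CPM gave a cytosolic median of 0.70 in Violet. The count of mitochondrial genes called lower in eGFP was 1 with summed counts, with the filter at 10 CPM and on log2(FPKM + 1), where SARS2 was not called or not tested. EPRS in Claret reached 1.01 with the filter at 10 CPM. At 1.5-fold, 12 cytosolic genes were called higher in Claret and 11 in Violet, and 4, 4 and 5 lower in Claret, eGFP and Violet. At that fold 1 mitochondrial gene was higher in Claret and 1 in eGFP, beside 19.6% and 20.3% of all genes. In each library 5 mitochondrial genes were lower, beside 16.6% (Claret), 17.8% (eGFP) and 16.6% (Violet) of all genes.

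An alternative chosen after seeing the data kept genes with under 5% of exon bases shared with other genes. It gave mitochondrial medians of -0.059 in Claret and -0.11 in Violet, and a difference between the sets of 0.82 in Claret. It kept 16 cytosolic genes, of which 5 were called higher in each library, since MARS and WARS were left out. Of all genes 11.2% (Claret), 11.9% (eGFP) and 11.5% (Violet) were called higher.

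Groups from the treatment field exchange the libraries. Claret against Bulk is then the library titled Bulk against that titled Violet, where 6.91% of all genes were higher and 11.5% lower. In Claret 0 cytosolic genes were then called higher and 7 lower, 3 mitochondrial genes higher and 0 lower, and the medians were -0.62 and 0.38, a difference of -1.004. AARS was at -1.71, CARS at -1.78, GARS at -1.51, MARS at -1.16, SARS at -1.96, WARS at -1.43, YARS at -1.32 and LARS2 at 1.30. In eGFP and Violet 0 cytosolic genes were called higher and 0 mitochondrial genes lower. In these 2 comparisons 0.782% and 0.926% of all genes were called in either direction. The cytosolic medians were 0.14 and 0.069 and the mitochondrial medians 0.094 and 0.18, differences of 0.049 and -0.11. LARS2 was at 0.067 and SARS2 at 0.48 in eGFP, and in Violet YARS was at -0.012, LARS2 at 0.15, MARS2 at 0.26 and SARS2 at 0.23. Between slow-cycling groups 8 genes were called for Claret against eGFP and 9 for Claret against Violet, beside 17.9% and 19.5% of all genes. These 2 comparisons set the library titled Bulk against those titled Claret and H2B-eGFP. No paired analysis was possible because each group holds 1 library. Depth limits the mitochondrial set: PARS2, with 141 to 177 reads, had an interval of -0.35 to 0.35 in Violet.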

Other observations

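Among 7 genes of the kinase and phosphatase arms that control eIF2, the sensor kinase EIF2AK4 (GCN2) had 1553 Bulk reads beside 1646 to 1808, log2 ratios of 0.11, 0.15 and 0.08 in Claret, eGFP and Violet. Its activator GCN1 had -0.62, -0.49 and -0.61. PPP1R15A, the stress-induced phosphatase subunit, had 1.03, 0.89 and 0.89 and was called higher in Claret, 1 of the 7, where 11.2% of all genes were. In eGFP and Violet 0 of the 7 were called, beside 19.5% and 18.4% of all genes in either direction.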
